A study of Mus musculus with 10 samples.

Results

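The core spliceosome protein genes are 36 genes whose proteins are fixed parts of the splicing machinery, and their mRNAs were followed here by the poly(A) tails and the numbers of single molecules. The members were listed by name and not by a measured value, though earlier results of these data were known. They encode the 7 Sm core proteins, 3 proteins of U1, 13 of U2, 5 of U5 and the tri-snRNP, 7 LSm proteins and 1 member of the Prp19 complex. All 36 had reads, out of 13272 genes with reads in the series. The samples were P19 cells, a wild-type mouse embryonal carcinoma line that is pluripotent, in the undifferentiated state. They were transfected with a pool of scrambled siRNAs (siCtl) or with an siRNA against Larp1 (siLarp1), and RNA was taken after 24 h (3 siCtl and 3 siLarp1 libraries) or, after a repeat of the transfection, at 48 h (2 and 2). Libraries are named by their number in the deposited table, 19, 21 and 22 at 24 h and 24 and 25 at 48 h. A transfected culture holds cells with more and with less siRNA, a single siRNA targeted Larp1, and the siCtl and siLarp1 libraries of 24 h were pooled and sequenced separately. Treatment and sequencing pool cannot be told apart at 24 h, while the 4 libraries of 48 h were sequenced together. The study's methods call the replicates biological, the table does not tie its library numbers to the labelled replicates, and p-values measure the spread between these libraries.

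The spliceosome removes introns from pre-mRNA. Its building blocks are small nuclear ribonucleoproteins (snRNPs), in which a ring of Sm proteins, or for U6 a ring of LSm proteins, is loaded on the snRNA. U1 marks the 5′ splice site, U2 with its SF3A and SF3B subcomplexes marks the branch site, U2AF binds the pyrimidine tract and the 3′ splice site, and the U4/U6·U5 tri-snRNP joins before catalysis. LARP1 is an RNA-binding protein best known for mRNAs with a 5′-terminal oligopyrimidine motif, above all those of ribosomal proteins, which serve here as the comparison list. The comparison of siLarp1 with siCtl asks how the tails and the amounts of spliceosome mRNAs stood when Larp1 was lowered.

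Depth was uneven. Kept reads, those on annotated mRNAs with a tail estimate of PASS quality, numbered from 119830 to 157012 per siLarp1 library at 24 h and from 289635 to 423247 per siCtl library, against 112676 to 178648 at 48 h. The 36 genes held 20887 of these reads, from 1133 to 4484 per library. Larp1 itself was at 81.8 ± 5.04 reads per 1000000 kept reads (RPM, SD, n = 3) in siCtl and 32.5 ± 12.9 in siLarp1 at 24 h, and at 146 ± 32.2 (n = 2) against 21.7 ± 4.51 at 48 h. The siLarp1 libraries held 3 to 6 Larp1 reads at 24 h and 3 at 48 h. The paper reports a reduced level of LARP1 protein by Western blot at both times. The log2 change of Larp1 reads was -1.34 at 24 h (limma voom, unadjusted p = 0.00233, adjusted p = 0.8196) and -2.55 at 48 h (unadjusted p = 0.000119, adjusted p = 0.107), neither adjusted p past the threshold. Over both times it was -1.95 (SE 0.37, adjusted p = 0.00201), and without siLarp1 library 24 the adjusted p was 0.0927. Of 11 genes listed as markers of pluripotent cells 10 had reads, with a summed level of 3365 to 4660.1 RPM per library, and Zfp42 was at 0. Among the other marker lists, 4 of 5 neuron genes summed to 191 to 366 RPM (Neurod1 at 0), 2 of 4 endoderm genes to 0 to 6.37 (Afp and Sox17 at 0) and 3 of 4 fibroblast genes to 0 to 43.6 (Postn at 0). The 2 of 3 mesoderm genes with reads (Mesp1 at 0) summed to 20.3 to 80.3 RPM in siCtl and 52.3 to 76.4 in siLarp1 at 24 h, and to 142 to 313 and 222 to 389.98 at 48 h, and their part in the results was not tested.

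The tail of each molecule begins where its aligned sequence ends, so the 3′ ends used by the spliceosome mRNAs were read from the table. The most used end was sought for 35 members whose most read transcript is in the GENCODE vM21 annotation (GRCm38). It was the most read position in the window, 10 nt to each side of its centre, that held the most reads. More than 90% of reads ended within 10 nt of it in 21 of the 35. In 13 of the 35 (37.1%) this end lay over 50 nt before the annotated one, a share close to that over 4970 genes (38.05%). The Sm gene Snrpd3 ended 1922 nt and Snrpd2 816 nt before the annotated end, while Snrpe ended 5 nt before it. The last 30 bases before the tail are shown for members that carry the results below, with the poly(A) signal AATAAA or ATTAAA in capitals (exon sequence of the annotated transcripts, GRCm38, read in the sense of the mRNA).
Snrpg, chr6:86378874-86378903, plus strand: tttttactaAATAAActtttgtgatactca
Snrpe, chr1:133603876-133603905, minus strand: AATAAAtgctgtaggaagtttttgttaaaa
Snrpd2, chr7:19152697-19152726, plus strand: gcgagaAATAAAaccctgtgctttttggtt
Snrpb, chr2:130171644-130171673, minus strand: gtttatAATAAActaagagactgttataca
Snrpc, chr17:27851939-27851968, plus strand: aaAATAAAgtcatcagctcttttagttaaa
U2af1, chr17:31647081-31647110, minus strand: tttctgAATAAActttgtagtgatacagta
U2af2, chr7:5079904-5079933, plus strand: tttgctcATTAAAcattttgttgtatttta
Phf5a, chr15:81865317-81865346, minus strand: gctAATAAAgttggctaccttccccgttaa
Sf3b5, chr10:13009154-13009183, plus strand: atatatatataaagtttagggtttgctcta
Prpf8, chr11:75509418-75509447, plus strand: aacaaaatgtAATAAAttttataaatagtg
Eftud2, chr11:102838477-102838506, minus strand: cacagtttataaatgaacaggacattctga
Lsm3, chr6:91522591-91522620, plus strand: tctttaaATTAAAtttgatgtttccttttt
Lsm2, chr17:34985862-34985891, plus strand: tcgggAATAAAacttatgatgcaagctgaa
Prpf19, chr19:10905503-10905532, plus strand: tttcATTAAAaaaaaaagctacacagtaaa

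The hexamer AATAAA, searched on the sense strand in the last 40 bases, was found in 24 of the 35 members (68.6%, against 70.8% of the 4970 genes), and ATTAAA, without AATAAA, in 6 (17.1%, against 15.1%). Neither was there in 5 members, Sf3a1, Sf3b3, Sf3b5, Eftud2 and Lsm6 (14.3%, against 14.1%). Sf3a1 had a downstream end too, with ATTAAA and 78 reads, against 66 reads within 10 nt of the end scored here. Ribosomal protein genes held AATAAA in 88.6% of 79. In the 12 sequences above that hold a hexamer it starts 20 to 30 bases before the tail. Reads aligned also to another gene made up at most 0.478% of a member's reads, in Prpf31.

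In siCtl cells the 36 mRNAs carried mean tails of 93.1 to 129.7 nt, over the pooled siCtl reads. The longest belonged to large subunits of the U2 and U5 particles, Sf3b3 (129.7 nt) and Sf3b1 (129.6 nt), which build the SF3B complex around the branch site, and Prpf8 (125 nt), the scaffold of the catalytic centre. Near the short end stood Lsm3 (98.6 nt), Lsm4 (101 nt) and Snrpf (103 nt), and the lowest value was that of the U1 protein gene Snrnp70 (93.1 nt), which rests on 45 reads. Medians by role were 105 nt for U1, 107 nt for the Sm core, 109 nt for LSm, 111 nt for U5 and the tri-snRNP and 112 nt for U2, with ranges that overlapped. Prpf19, alone in its role, was at 119 nt. Across 35 members the mean tail was longer where the annotated transcript, up to its most used 3′ end, was longer (Spearman's rho 0.51). Across 4970 genes it was much the same (0.47). Both are descriptions over genes measured in the same libraries.

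**Figure D1:**
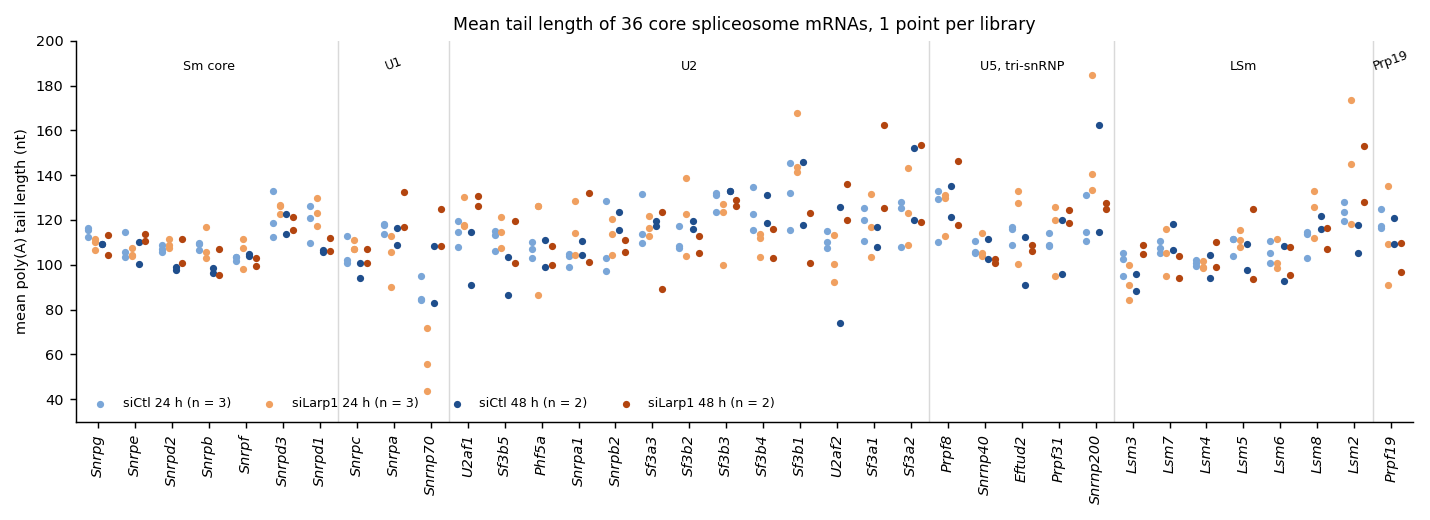
Mean poly(A) tail length (nt, vertical axis) of each of the 36 genes (horizontal axis, by role and then by number of reads), with 1 point per library in 4 colours for siCtl and siLarp1 at 24 h and 48 h. The siCtl and siLarp1 points of the well-read Sm genes lie between 95.4 and 133 nt, and the points of the less read genes on the right of each role spread more widely.

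Single molecules varied far more than groups did. In siCtl at 24 h the 10872 member reads had a median tail of 104 nt, with 71.2 and 142 nt at the quartiles and 37.6 and 209 nt at the 5th and 95th percentiles. The medians in the other groups were 105 nt in siLarp1 at 24 h, 99.3 nt in siCtl at 48 h and 103 nt in siLarp1 at 48 h.

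**Figure D2:**
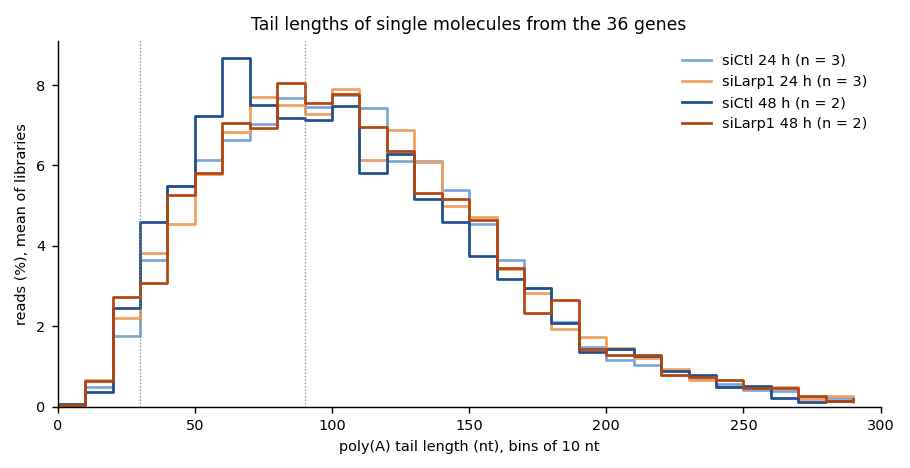
Share of member reads (%, vertical axis, mean of the libraries of a group) in bins of 10 nt of tail length (horizontal axis, to 300 nt), with dotted lines at 30 and 90 nt. The 4 groups follow each other closely, and siCtl at 48 h is highest in the bins from 30 to 70 nt.

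Pooled over the 36 genes, mean tail length lay between 108 and 114 nt in every library. It was 113, 111 and 109 nt in the siCtl libraries and 113, 109 and 114 nt in the siLarp1 libraries at 24 h, where the groups overlapped (111 ± 1.76 against 112 ± 2.92 nt, SD, n = 3). At 48 h it was 108 and 108 nt in siCtl and 109 and 112 nt in siLarp1, with no overlap (n = 2), a difference of 3.14 nt, or 1.73 nt without siLarp1 library 25. All genes without the ribosomal protein genes differed by 2.27 nt at 48 h, also without overlap, and ribosomal protein mRNAs by -1.03 nt, with overlap.

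Reads with tails under 30 nt, the class the study set apart as the shortest tails, were a small share of spliceosome mRNAs. At 24 h they made up 2.202, 2.27 and 2.297% in siCtl and 2.53, 3.48 and 2.66% in siLarp1, so each siLarp1 library lay above each siCtl library. The values at 48 h were 2.65 and 3.14% and 3.502 and 3.31%, again without overlap. The difference was 0.633 percentage points at 24 h and 0.512 at 48 h, and it was 0.338 at 24 h without siLarp1 library 21 and 0.264 at 48 h without siCtl library 24. All genes together differed by 0.574 points at 24 h and 0.896 at 48 h, also without overlap at either time. Ribosomal protein mRNAs differed by 1.31 and 1.81 points, and all genes without them by 0.246 and 0.539. In siLarp1 library 21 the share was high over all genes without ribosomal protein genes too, at 2.53, 3.25 and 2.39% in libraries 19, 21 and 22. The differences between these lists were not tested.

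Tails of 30 to 90 nt, the class around 60 nt, were 36.04, 35.98 and 37.9% of member reads in siCtl and 37.3, 37.4 and 33.8% in siLarp1 at 24 h, with overlap. At 48 h they were 42.3 and 39.1% and 37.6 and 34.9%, without overlap, a difference of -4.42 points. All genes differed by -2.78 points at 48 h, also without overlap. Without siCtl library 24 the member difference was -2.81 points. In amount the members summed to 10265 ± 377 RPM in siCtl and 10297 ± 457 RPM in siLarp1 at 24 h (SD, n = 3), and to 9923 ± 188 against 10243 ± 30.1 RPM at 48 h (n = 2), or 1.03%, 1.03%, 0.992% and 1.02% of kept reads. The 48 h siLarp1 level of the members was 103.2% of siCtl, without overlap. All genes without ribosomal protein genes stood at 102.9%, also without overlap, and ribosomal protein genes at 93.0%. The member rise was thus close to that of other genes that are not ribosomal.

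**Figure D3:**
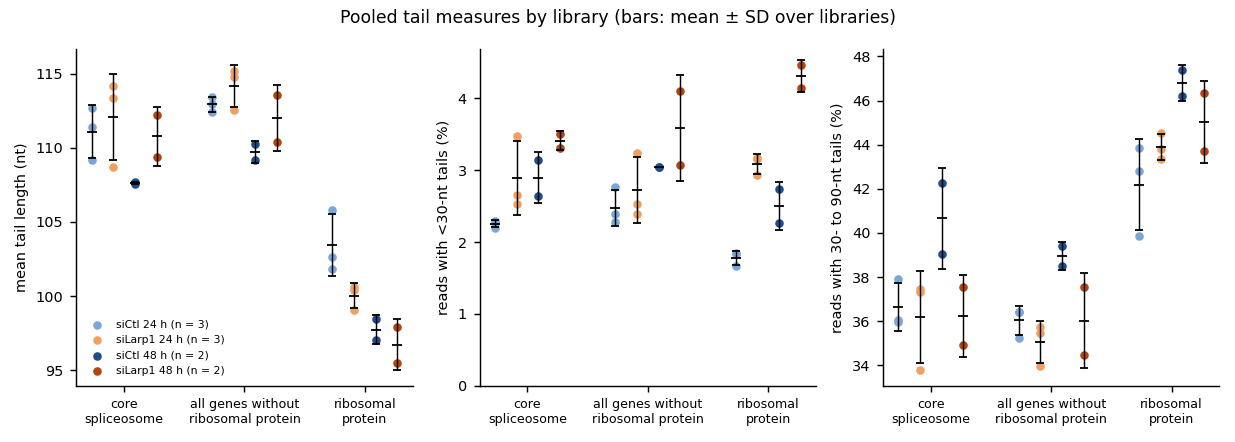
Mean tail length (nt), share of reads with <30-nt tails (%) and share with 30- to 90-nt tails (%) on the vertical axes of 3 panels, pooled over the core spliceosome genes, all genes without ribosomal protein genes, and the ribosomal protein genes. Points are libraries, bars give the mean ± SD, and siLarp1 points lie above siCtl points at each time for <30-nt tails of the spliceosome and ribosomal protein genes. For all genes without ribosomal protein genes they do so at 48 h only.

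Gene by gene, no member passed an adjusted p of 0.05 (limma, two-sided, Benjamini-Hochberg over all genes tested) for any of the 4 measures at 24 h, at 48 h, over both times, or in the difference between the times. All 36 had enough reads to be tested in each fit, at least 30 reads at each time point, among 4797 genes at 24 h, 2704 at 48 h and 2698 with both. For mean tail length the share of all genes called was 0% at 24 h, 0% at 48 h and 0% over both. At an unadjusted p under 0.05 stood 1, 2 and 2 of the 36, against 5.61%, 5.1% and 6.19% of all genes. For <30-nt tails 0.0834%, 0.37% and 0.445% of all genes were called, and 4, 3 and 4 members had an unadjusted p under 0.05, against 4.88%, 9.95% and 9.12%. For 30- to 90-nt tails 0.125%, 0% and 0.371% were called, with 0, 5 and 2 members at the unadjusted threshold beside 5.88%, 7.29% and 7.6%. For abundance the called shares were 0%, 0.074% and 0.334%, with 2, 2 and 3 members at the unadjusted threshold beside 5.73%, 6.1% and 7.38%. As shares of the 36 the unadjusted counts ran from 0% to 13.9%, the highest being the 5 members for 30- to 90-nt tails at 48 h.

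The siLarp1 effects at 48 h and 24 h did not differ in any member by an adjusted p under 0.05, the interaction term of the same fits. Called shares of all genes were 0% for tail length, 0.0371% for <30-nt tails, 0.0371% for 30- to 90-nt tails and 0% for abundance. Unadjusted p values under 0.05 were seen in 1, 4, 3 and 1 members, beside 4.48%, 6.89%, 6.19% and 4.67% of all genes. The smallest adjusted p was 0.274, for <30-nt tails of the U1 protein gene Snrpc.

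By direction over both times, 24 of the 36 had a longer fitted mean tail in siLarp1, with a median change of 2.64 nt against 1.66 nt over all genes tested (58.7% longer). For <30-nt tails 23 of 36 were higher, with a median of 0.687 points against 0.321 (54.7% of all genes higher). In 30- to 90-nt tails 23 of 36 were lower and 13 higher (median -2.301 points, all genes -2.07), and 37.5% of all genes were higher. In abundance 21 were higher (median log2 change 0.03, all genes 0.01), beside 51.7% of all genes. The ribosomal protein genes were higher for <30-nt tails in 79 of 79, of which 7 passed the adjusted test, and had a shorter mean tail in 63 of 79 (median -2.46 nt). In abundance at 48 h, 20 members were higher and 16 lower, and with median-ratio scaling 16 were higher and 20 lower.

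**Figure D4:**
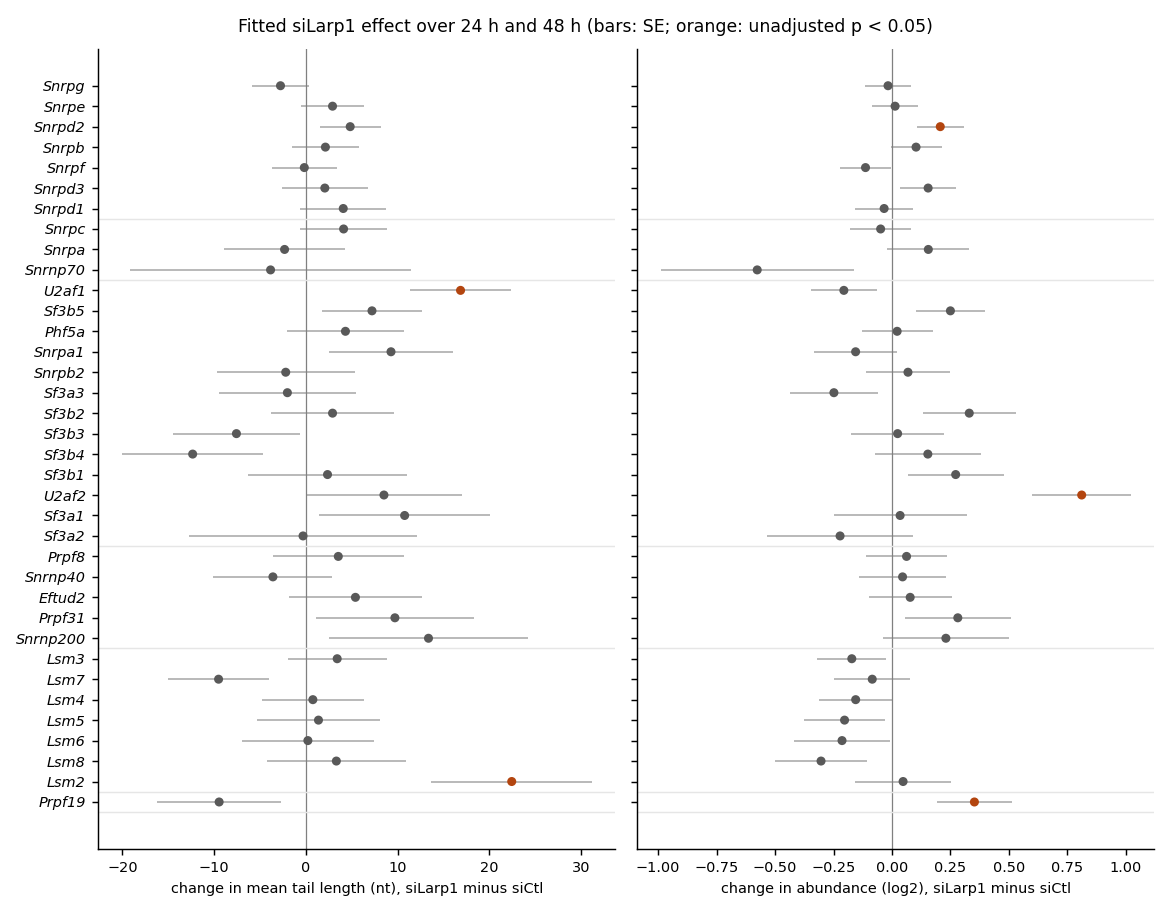
Fitted change between siLarp1 and siCtl over both times for the 36 genes (vertical axis), in mean tail length (nt, left) and abundance (log2, right), with bars for the SE and colour for an unadjusted p under 0.05. U2af1 and Lsm2 stand at the right in tail length, U2af2 in abundance, and most other bars cross or lie near 0.

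The Sm core genes encode the ring of 7 proteins shared by the snRNPs and were the most read members, with 878 to 1946 reads each. Snrpg had mean tails of 116, 116 and 113 nt in siCtl and 106, 112 and 110.2 nt in siLarp1 at 24 h, and 109 and 109 nt against 113 and 104 nt at 48 h. All 3 siLarp1 libraries of 24 h lay below the siCtl libraries, and at 48 h the groups overlapped. For Snrpe, another ring subunit, the values were 115, 106 and 103 nt in siCtl and 104, 104 and 107 nt in siLarp1 at 24 h, and 110.005 and 100.2 nt against 114 and 111 nt at 48 h. These overlapped at 24 h, and at 48 h both siLarp1 values lay above both of siCtl. For Snrpd2, which pairs with SmD1 in the ring, they were 109, 107 and 106 nt in siCtl and 107, 111 and 109 nt in siLarp1 at 24 h, and 97.5 and 98.8 nt against 101 and 111 nt at 48 h. At 24 h the groups overlapped, and at 48 h both siLarp1 values were higher. Fitted changes over both times were -2.76 (SE 3.07), 2.91 (SE 3.39) and 4.84 nt (SE 3.31), and across the 7 genes 5 were longer, none past the test.

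Tails under 30 nt on Sm mRNAs made up, at 24 h in siLarp1, 3.15 ± 0.0965% of pooled reads against 2.14 ± 0.188% in siCtl (SD, n = 3, no overlap), and at 48 h 2.94 ± 0.05196% against 3.21 ± 0.664% (n = 2, overlapping). Snrpd2 had 0, 1 and 2 such reads in the siCtl and 2, 3 and 2 in the siLarp1 libraries of 24 h, or 0.398% of 754 and 2.06% of 339 reads. It was 1.59% and 1.43% at 48 h, so each siLarp1 library lay above siCtl at 24 h and the groups overlapped at 48 h. Snrpb, whose gene gives the SmB and SmB′ proteins, was lower in siLarp1 at 48 h and overlapped at 24 h. It had 8, 10 and 8 <30-nt reads in siCtl and 2, 2 and 5 in siLarp1 at 24 h, and 4 and 6 against 4 and 2 at 48 h. As shares these were 3.39% and 3.18%, then 6.02% and 3.05%, a fitted difference of -1.596 points (SE 0.589, unadjusted p = 0.0322, limma adjusted p = 0.488).

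In the U1 particle, Snrpc encodes the protein that steadies pairing with the 5′ splice site. Its mean tails were 101, 102 and 113 nt in siCtl and 107, 111 and 107 nt in siLarp1 at 24 h, and 94.04 and 101 nt against 107 and 101 nt at 48 h, with overlap at both times. Its <30-nt reads numbered 3, 1 and 3 in siCtl and 0, 0 and 0 in siLarp1 at 24 h, and 1 and 0 against 3 and 4 at 48 h. The 24 h siLarp1 total was 0 of 151 reads, which allows a share of up to 1.99% (counting error only), and all siCtl libraries lay above it. The 48 h siLarp1 share was 6.19% of 113, above both siCtl libraries. The difference between the times was 6.95 points (SE 1.501, adjusted p = 0.274). The fitted change over both was 1.84 points (SE 0.7505, unadjusted p = 0.04602, adjusted p = 0.536). Without siLarp1 library 25 the fitted change was 1.165 points. With a limit of 20 nt in place of 30 nt it was 0.885 points with an adjusted p of 0.0015. That value comes from 48 h, where the change with this limit was 1.77 points (SE 0.097) on 113 siLarp1 reads. It thus rests on very few molecules. Snrpa, the U1 protein on a stem-loop of the snRNA, had mean tails of 118, 118 and 114 nt in siCtl and 106, 90.01 and 113 nt in siLarp1 at 24 h, and 109 and 116 nt against 117 and 133 nt at 48 h. All siLarp1 libraries lay below siCtl at 24 h and above it at 48 h, with fitted differences of -13.4 nt (SE 6.98, adjusted p = 0.861) and 8.72 nt (SE 11.2). Snrnp70, the U1-70K protein, had mean tails of 94.98, 84.4 and 84.8 nt in siCtl and 55.8, 71.8 and 43.5 nt in siLarp1 at 24 h, and 82.7 and 109 nt against 108 and 125 nt at 48 h, from only 64 reads in all. The siLarp1 values of 24 h were lower than all of siCtl, on 1, 5 and 1 reads, and the groups overlapped at 48 h (fitted -23.005 nt at 24 h, SE 23.1).

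U2 and its helpers held the member with the smallest adjusted p and the member with the smallest p in tail length. U2af1 encodes the small subunit of U2AF, which contacts the AG of the 3′ splice site. Its mean tails were 108, 119 and 114 nt in siCtl and 130.4, 117 and 118 nt in siLarp1 at 24 h, and 115 and 91.2 nt against 131 and 126 nt at 48 h. At 24 h the groups overlapped, with 1 siLarp1 library above all of siCtl, and at 48 h both siLarp1 values were higher. The fitted difference was 16.9 nt over both times (SE 5.47, unadjusted p = 0.00436, limma adjusted p = 0.565), and over the alternatives it ran from 10.7 (without siCtl library 25) to 22.4 nt. Its amount was 318, 288 and 338 RPM in siCtl and 284, 284 and 318 RPM in siLarp1 at 24 h, and 444 and 313 RPM against 309 and 257 RPM at 48 h, overlapping at 24 h and lower in siLarp1 at 48 h.

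U2af2 (ENSMUSG00000030435.16, chr7:5062143-5079938 of GRCm38, 12 exons in its most read transcript) encodes the large subunit, which binds the pyrimidine tract. Its abundance was 89.8, 63.9 and 111 RPM in siCtl and 117, 112 and 178 RPM in siLarp1 at 24 h, and 133 and 89.6 RPM against 209.9 and 207 RPM at 48 h. Each siLarp1 library lay above each siCtl library of the same time point, from counts of 26, 22 and 47 reads against 14, 15 and 28, and 15 and 16 against 34 and 25. The group means were 88.2 ± 23.6 and 136 ± 36.9 RPM at 24 h (SD, n = 3), and 111 ± 30.8 and 209 ± 1.71 RPM at 48 h (n = 2). Over both times the log2 change was 0.81 (SE 0.21, unadjusted p = 0.000289) and the limma voom adjusted p was 0.0649, the smallest of any member in any measure but short of 0.05. Without siCtl library 22 the adjusted p was 0.0142 (log2 change 0.92), and over the alternatives it ran from 0.0136 to 0.603.

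The U2af2 reads fell on 4 annotated transcripts, of which 3 held all but 2. The coding transcript with 44.6% of the reads was at 37.4 and 56.8 RPM in siCtl and siLarp1 at 24 h, and 60.7 and 99.2 at 48 h. A second coding transcript was at 27.4 and 44.5, then 31.7 and 65.1 RPM. A transcript annotated with a retained intron, with 23.6% of the reads, was at 22.5 and 32.002, then 18.9 and 44.4 RPM. Each was thus higher on average in siLarp1 at both times, from 5 to 39 reads a group, and single transcripts were not tested. U2af2 tails were 115, 107 and 110.1 nt in siCtl and 113, 100.2 and 92.3 nt in siLarp1 at 24 h, and 73.98 and 126 nt against 136 and 119.99 nt at 48 h, with siCtl libraries of 48 h that lay far apart, on 15 and 16 reads. Its 30- to 90-nt share was 30.8, 36.4 and 44.7% in siCtl and 50, 53.3 and 50% in siLarp1 at 24 h, and 80 and 43.8% against 32.4 and 16% at 48 h, so that siLarp1 lay above siCtl at 24 h and below it at 48 h, and the difference between the times was -47.8 points (SE 14.1, adjusted p = 0.4601).

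**Figure D5:**
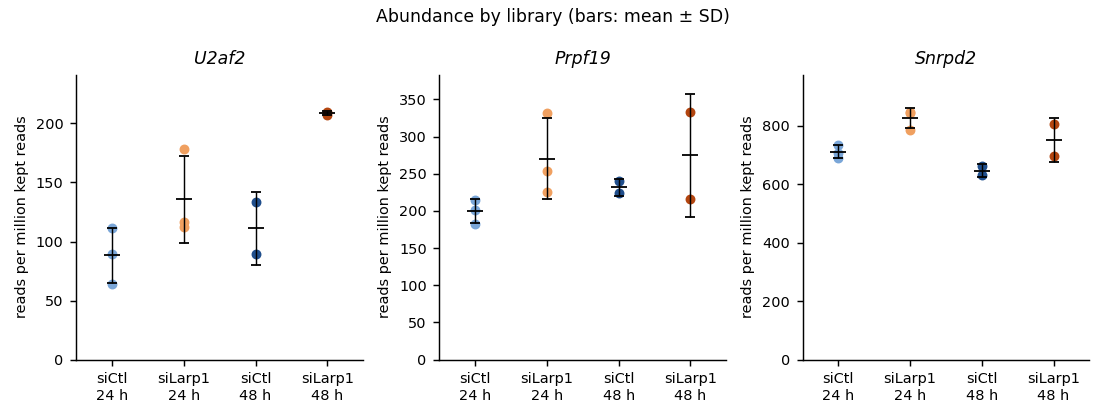
Abundance (RPM, vertical axis from 0) of U2af2, Prpf19 and Snrpd2 by group (horizontal axis), with 1 point per library and bars for the mean ± SD. Each siLarp1 point of U2af2 and Snrpd2 lies above each siCtl point of its time, and the Prpf19 groups overlap at 48 h.

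Among other U2 members, Sf3b5, a small SF3B subunit from a gene with a single exon, had mean tails of 115, 113 and 106 nt in siCtl and 121, 108 and 115 nt in siLarp1 at 24 h, and 86.3 and 104 nt against 101 and 119 nt at 48 h, overlapping at both times. Phf5a, the zinc-knuckle SF3B protein at the branch site, stood at 110.1, 107 and 103 nt in siCtl and 126, 86.7 and 126 nt in siLarp1 at 24 h, and 111 and 99.1 nt against 108 and 99.9 nt at 48 h. The siLarp1 values of 24 h were thus both above and below those of siCtl. Its <30-nt reads were 0, 1 and 0 in siCtl and 2, 0 and 2 in siLarp1 at 24 h, then 0 and 1 and 2 and 2. The fitted change was 3.62 points (SE 1.28, unadjusted p = 0.0272, adjusted p = 0.439). Sf3a2, of the SF3A complex, had 2 such reads in siLarp1, 1 at each time, and 0 of 71 in siCtl, and its fitted 5.903 points (SE 2.41, adjusted p = 0.539) rest on those 2 reads, with 3.125 points without siLarp1 library 21. Over the 13 U2 genes 8 had longer tails, 9 more <30-nt tails and 9 higher amounts, and their pooled <30-nt share was 2.08 ± 0.268% in siCtl and 2.42 ± 0.451% in siLarp1 at 24 h (n = 3, overlapping). At 48 h it was 2.19 ± 0.9002% in siCtl and 4.38 ± 0.277% in siLarp1 (n = 2).

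U5 and tri-snRNP genes were read less, with 148 to 358 reads. Prpf8 had mean tails of 110.1, 133 and 129 nt in siCtl and 131, 113 and 129.6 nt in siLarp1 at 24 h, and 135 and 121 nt against 147 and 118 nt at 48 h. Snrnp40, a WD-repeat protein of U5, was at 105, 111 and 106 nt in siCtl and 114, 104 and 105 nt in siLarp1 at 24 h, and 102 and 112 nt against 102 and 101 nt at 48 h. Eftud2, the U5 GTPase, was at 117, 109 and 116 nt in siCtl and 133, 100.2 and 128 nt in siLarp1 at 24 h, and 90.9 and 112 nt against 106 and 109 nt at 48 h. In these 3 genes siLarp1 and siCtl libraries overlapped at both times. Snrnp200, the helicase that unwinds U4 from U6, was at 115, 110.4 and 131 nt in siCtl and 140.4, 133 and 185 nt in siLarp1 at 24 h, and 162 and 114 nt against 128 and 125 nt at 48 h, on 148 reads. Its siLarp1 libraries lay above siCtl at 24 h and among them at 48 h, with a fitted 27.6 nt at 24 h (SE 13.9, adjusted p = 0.861). Prpf31 encodes a U4/U6 protein that tethers the tri-snRNP. Its 30- to 90-nt share was 37.5, 38.5 and 50% in siCtl and 52.4, 6.25 and 42.9% in siLarp1 at 24 h, and 40 and 56.5% against 15.8 and 28.6% at 48 h, on 10 to 34 reads a library. The fitted change was -18.7 points (SE 7.56, unadjusted p = 0.0134, adjusted p = 0.509), and the groups overlapped at 24 h while both siLarp1 values were lower at 48 h. Without siLarp1 library 21 it was -12.06 points. All 5 genes were higher in mean fitted amount, with a median log2 change of 0.08 and none past the test.

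The LSm genes encode the ring on U6 and, with other partners, a cytoplasmic ring in mRNA decay. Lsm3 had mean tails of 105, 103 and 94.8 nt in siCtl and 84.3, 90.9 and 99.9 nt in siLarp1 at 24 h, and 88.5 and 96.1 nt against 109 and 105 nt at 48 h. Its siLarp1 libraries overlapped siCtl at 24 h and lay above at 48 h. Lsm7 was at 107, 105 and 111 nt in siCtl and 105, 94.9 and 116 nt in siLarp1 at 24 h, and 118 and 106 nt against 94.3 and 104 nt at 48 h, lower in siLarp1 at 48 h, with a fitted -9.52 nt over both times (SE 5.501, unadjusted p = 0.09399). That change was -5.96 nt without siLarp1 library 21, -6.07 nt without siCtl library 24 and -1.48 nt with median in place of mean tails. Lsm4 was at 101, 102 and 99.6 nt in siCtl and 102, 98.6 and 98.8 nt in siLarp1 at 24 h, and 94.002 and 104 nt against 99.1 and 110.1 nt at 48 h, with overlap at both times. Lsm2 had the largest fitted tail change of the 36. Its libraries stood at 128, 123 and 119 nt in siCtl and 174, 118 and 145 nt in siLarp1 at 24 h, and 105 and 118 nt against 128 and 153 nt at 48 h, from 12 to 59 reads each. At 24 h 1 siLarp1 library lay below the siCtl values, and at 48 h both lay above. The fitted change was 22.5 nt (SE 8.75, unadjusted p = 0.0155, adjusted p = 0.727). Its 30- to 90-nt share was 24.1, 26.3 and 37.3% in siCtl and 13.3, 33.3 and 22.7% in siLarp1 at 24 h, and 41.7 and 41.4% against 13.6 and 7.14% at 48 h, a fitted -18.8 points (SE 6.48, unadjusted p = 0.00367, adjusted p = 0.359). With the transcript with the most reads the latter was -11.95 points, and with a mapping quality of at least 10 the tail change was 13.6 nt. Both measures come from the same reads.

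In amount, fitted abundance over both times was lower in 6 of 7, all but Lsm2, with a median log2 change of -0.17 and none past the test. Summed over the 7, the levels were 1585, 1386 and 1666 RPM in siCtl and 1444, 1398 and 1471 RPM in siLarp1 at 24 h, which overlapped, and 1668 and 1489 against 1352 and 1286 RPM at 48 h, which did not. These are relative levels, and no sum was tested.

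Prpf19, the ubiquitin ligase at the heart of the Prp19 complex, had mean tails of 117, 125 and 116 nt in siCtl and 109, 90.8 and 135 nt in siLarp1 at 24 h, and 109 and 121 nt against 96.9 and 109.9 nt at 48 h, with overlap at 24 h and 48 h. Its amount was 183, 215 and 201 RPM in siCtl and 225, 254 and 331 RPM in siLarp1 at 24 h, and 239.6 and 224 RPM against 333 and 216 RPM at 48 h. The siLarp1 libraries of 24 h lay above all 3 of siCtl, and at 48 h they lay on both sides. The log2 change over both times was 0.35 (SE 0.16, unadjusted p = 0.031005, adjusted p = 0.576), and it was 0.18 without siLarp1 library 24 and 0.11 with a mapping quality of at least 10. Its 30- to 90-nt share had a fitted difference of 8.68 points (SE 4.903, unadjusted p = 0.0766), which was 3.49 without siLarp1 library 24, 4.345 without siCtl library 25 and 14.07 without siLarp1 library 22. Snrpd2 of the Sm core, the member with the third smallest p for abundance, was at 691, 706 and 735 RPM in siCtl and 843, 785 and 847 RPM in siLarp1 at 24 h, and 630.1 and 661 RPM against 697 and 805 RPM at 48 h. Every siLarp1 value lay above every siCtl value of its time, by a log2 change of 0.21 (SE 0.10, unadjusted p = 0.0435, adjusted p = 0.625). Reads are counted once per molecule, so RPM needed no division by length. RPM is relative to all kept reads, so it also moves with the amounts of other mRNAs. It cannot tell less RNA per cell from fewer cells that hold that RNA.

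At single times a few other members had an unadjusted p under 0.05, each with an adjusted p above the threshold, and are named here after their values were seen. Sf3b4, an SF3B protein that contacts pre-mRNA near the branch site, had 0, 0 and 3 reads of <30 nt in siCtl and 1, 3 and 1 in siLarp1 at 24 h, or 0, 0 and 3.45% against 5, 15 and 5.26%, with no overlap and a fitted 6.54 points (SE 2.72, adjusted p = 1). At 48 h it had 0 and 1 against 0 and 0. Snrpe had 3.41, 2.84 and 2.65% such reads in siCtl and 5.93, 6.19 and 5.11% in siLarp1 at 24 h, without overlap and with a fitted 2.78 points (SE 1.08, adjusted p = 0.9797), with overlap at 48 h. Sf3b2, which anchors SF3B near the branch site, had none in siCtl at 48 h and 2 and 2 in siLarp1, a fitted 5.26 points (SE 1.504, adjusted p = 0.274). Its amount was 155, 163 and 156 RPM in siCtl and 91.8, 165 and 185 RPM in siLarp1 at 24 h, and 88.8 and 218 RPM against 315 and 207 RPM at 48 h, which overlapped at both times, while the fitted log2 change at 48 h was 0.76 (SE 0.32, adjusted p = 0.805).

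The other members are given by their ranges. In the Sm core, Snrpd1, Snrpd3 and Snrpf had mean tails of 103 to 119.6 nt in pooled siCtl reads, and fitted changes over both times of -0.166 to 4.08 nt. In U2, the particle's own Snrpa1 and Snrpb2 and the SF3 subunits Sf3a1, Sf3a3, Sf3b1 and Sf3b3 spanned 103 to 129.7 nt in siCtl, with fitted changes of -7.57 to 10.8 nt. The ring genes Lsm5, Lsm6 and Lsm8, of which Lsm8 belongs to the nuclear ring on U6, spanned 104 to 112 nt, with changes of 0.224 to 3.33 nt. None of these 12 had an unadjusted p under 0.05 in tail length over both times.

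Other splicing genes were tested in the same fits, over both times. Of 70 further spliceosome genes 42 had enough reads, and 0 passed the adjusted test in any of the 4 measures (limma), with 3 longer and 0 shorter tails at an unadjusted p under 0.05. Their median tail change was 2.48 nt, and their 30- to 90-nt share was lower in 32 of 42 (median -4.12 points, all genes -2.07). Of 14 snRNP assembly genes, of the SMN and PRMT5 complexes and their partners, 8 were tested, 6 had longer tails (median 4.995 nt) and 7 fewer <30-nt tails. Of 14 SR genes 13 were tested and 10 had longer tails (median 4.97 nt, median log2 abundance change 0.09). Of 24 hnRNP genes 21 were tested and 13 had longer tails (median 0.922 nt). In these 3 lists too, 0 genes passed the adjusted test in any measure, and at an unadjusted p under 0.05 stood 0, 1 and 2 of them for tail length.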

How the data were processed

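P19 cells transfected with siCtl or siLarp1 were profiled by direct RNA sequencing (Oxford Nanopore) in 10 libraries. Per the study's methods, the authors called bases with Guppy, assigned barcodes with Deeplexicon, aligned reads with Minimap2 to mm10 with GENCODE vM17 genes and to RNA standards, and measured tails with Nanopolish. Version 2.20 of Minimap2 is given in the submitters' processing notes. Every alignment is a line of the deposited table, which also holds alignments to repeats. For each, the authors give a tail length (nt), a quality tag, a mapping quality score and the confidence of the barcode (a fraction), and no filter had been applied to them.

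Kept reads were alignments to annotated mRNAs with the tag PASS, without mitochondrial transcripts and pseudogenes, each read counted once per gene (0.327% of reads lay on several genes). Kept reads numbered 112676 to 423247 per library. Shares rest on few reads in many genes, so their precision is limited, and intervals and limits cover counting error only. Libraries were grouped by the condition given for them in the table, the 24 h libraries being those whose condition carries no time. Their numbers could not be tied to the labelled replicates and serve only as names.

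Each gene and library gave a mean tail (weighted by reads), the share of <30-nt and of 30- to 90-nt tails (binomial precision weights) and abundance (limma voom, scaled to kept reads). One fit of 10 libraries without a block (limma 3.58.1, R 4.3.3) gave the siLarp1 effect at 24 h, at 48 h, their mean and their difference, with Benjamini-Hochberg adjustment over all genes with at least 30 reads at each time point used and, in each group, reads in 2 or more libraries, and a threshold of 0.05. Pooled values over the members carry no test. Tallies used Python 3.11.15 with pandas 2.3.3, and the fits were tested on simulated data. The simulation held only well-read genes and large changes, so it did not test whether small changes or little-read genes would be called.

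Named genes were, by role, those with the most reads (3 in roles of at least 4 members, otherwise 1) and, for each measure, at most 6 with the smallest unadjusted p under 0.05 over both times, or the 3 smallest. Sequences and 3′ ends came from GENCODE vM21, also GRCm38, where 35 of 36 most read transcripts matched. The members and lists were chosen with earlier results of these data known. Alternatives covered quality tag, barcode confidence, mapping quality, reads on several genes, transcript, read minimum, time points alone, block, weights, model, class limit, scaling and each library left out.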

Additional observations from a re-analysis of the deposited data

How the results depend on the processing

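Under the alternatives, 0 members were called in 320 of 332 fits and 1 member in 12. For <30-nt tails 1 member was called with the transcript with the most reads (Eftud2, at 48 h and over both times) and with a limit of 20 nt (Snrpc, at 48 h, over both and between the times). With each library left out in turn the members called ranged from 0 to 1 for <30-nt tails at 24 h (Sf3a1, without siCtl library 21), over both times (Sf3a1 without siCtl library 21, Snrpe without siCtl library 25, Eftud2 without siLarp1 library 24) and between the times (Sf3a1), from 0 to 0 in the 48 h fit, and from 0 to 1 for abundance over both times (U2af2, without siCtl library 22). The cause was not tested. In the main data Sf3a1 had 2 <30-nt reads, all in siCtl at 24 h. The Snrpc and Eftud2 calls also rest on few molecules. The most read Eftud2 transcript had 25 siCtl and 32 siLarp1 reads at 48 h, with a fitted -12 points. Snrpb turned from fewer to more <30-nt reads, at 0.22 points, with the limit of 20 nt, and Sf3a2 went to 0. The <30-nt, 30- to 90-nt and abundance counts over all genes ran from 0 to 53, 0 to 14 and 0 to 34 under the alternatives, against 1 to 12, 0 to 10 and 0 to 9, and tail length from 0 to 5 against 0. The logistic model gives log2 odds, so its estimates were left out of ranges. The 78 differences of pooled levels moved by less than the spread between libraries, a limit that leaving 1 library out could not pass. At 24 h the differences in mean tail, 30- to 90-nt share and RPM changed sign under some alternatives. Without siLarp1 library 22 they were -0.067 nt, 0.755 points and -214.6 RPM, against 0.971, -0.453 and 31.6.

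The library numbers did not pair the samples by the rule used, a correlation of deviations over 0.1 in every pair: same-numbered libraries at 24 h correlated at 0.0930 to 0.361 in abundance and 0.0473 to 0.139 in tail length, those at 48 h at 0.153 and 0.0103, and at 24 h each correlated best with its own number, a hint from the data and not from the design. With the replicate block 0 members were called, except 1 for abundance over both times, U2af2 (log2 change 0.78, adjusted p = 0.0136), and the genes called for abundance went from 9 to 34. Depth limits the shares: members hold 64 to 1946 reads, and a change of a few points in a gene with 100 reads is a few molecules.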

Other observations

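Some members used a second 3′ end, which the gene level values merge. In Sf3b2, an SF3B subunit, 42 reads ended 374 nt before the main end, which had 227, with mean tails of 127 nt (SD 57.4 over reads) against 112 nt (SD 56.2). The share of the second end was 13.4% in siCtl and 17.02% in siLarp1 at 24 h, and 14.3% and 20% at 48 h, over pooled reads. In the Sm gene Snrpd1 the second end took 11.1% and 14.9%, then 19.2% and 16.2%. Sf3a1 of the SF3A complex had a pair of ends 105 nt apart, with 52.8% and 50%, then 55.6% and 60.7% on the downstream end. The mean tails at its ends were 123 and 119 nt. Differences in end use were not tested.

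U2af1 reads included 27 on a transcript annotated for nonsense-mediated decay, with a mean tail of 139.8 nt against 116 nt for the main coding transcript. Its level was 9.33 and 14.5 RPM in siCtl and siLarp1 at 24 h and 17.3 and 21.7 RPM at 48 h, on 5 to 10 reads a group.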
